A study of Mus musculus with 2 samples.

Results

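The comparison described here was made within the lungs of CCR2-/- mice given silica, between the first block of 3 hashtagged cell suspensions (tags 1 to 3) and the second block of 3 (tags 4 to 6). CCR2 is the chemokine receptor through which classical monocytes leave the bone marrow, and silica in the airways is a standard way to bring about lung inflammation and fibrosis in mice. Members were chosen by the tag in the name of each cell column of the CCR2-/- table and by 2 limits on quality: at least 200 detected genes, and at most 25% of reads from mitochondrial genes. These limits kept 11733 of 12340 tagged cells, 5816 in the first block and 5917 in the second, out of 32445 kept cells in the whole series. "Rose" and "fell" below mean higher and lower in the second block than in the first, where the stated test was passed.

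The mice were C57BL/6 animals of 2 genotypes, WT and CCR2-/-. Both received 400 mg/kg silica into the trachea, so both blocks come from silica-exposed lungs and no untreated lung was analysed here. Lungs were taken at days 3, 7 and 21, but the labels tie no tag to a day, so no day is attached to a block. Lungs were digested with Liberase, cells were enriched on a Percoll gradient, and hashtag antibodies marked the suspensions before those of a genotype were pooled and captured in 1 BD Rhapsody run of 20000 loaded cells. The labels do not say whether a tag is 1 animal or several, nor that the tags of a block are replicates of 1 condition, so the p-values below measure the spread between tagged suspensions.

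Type I and type II interferons act through STAT proteins and interferon regulatory factors to switch on antiviral genes and the machinery that loads peptides onto MHC molecules. In the lung, alveolar type 2 cells make surfactant and also carry MHC class II, alveolar macrophages clear surfactant and inhaled particles, and activated fibroblasts lay down collagen and tenascin at sites of injury. Monocytes recruited through CCR2 are a known source of inflammatory and matrix-remodelling macrophages in injured lung.

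The 6 tags held 65087385 to 86747967 reads each over 1828 to 2100 kept cells, with 6.71% to 7.04% of reads from mitochondrial genes. After thinning each cell to 5000 reads, 735 ± 23.3 genes were detected per cell in the first block and 764 ± 9.96 in the second (SD, n = 3). No cell label stood under more than 1 tag of the CCR2-/- table, while 318 labels of tagged cells occurred in both libraries. Ccr2 (chr9:124101950-124113557) stood at 1.41, 4.24 and 2.23 CPM in tags 1 to 3 and 1.78, 4.4 and 2.68 CPM in tags 4 to 6 in the CCR2-/- table and at 56.8, 52.2 and 74.4 and 97.3, 96.2 and 99.7 CPM in the WT table, in CPM (reads of the gene relative to all reads of the tag, edgeR's usual scale) from 1 fit over both genotypes. Whether its reads in CCR2-/- cells fall outside the deleted part is not given in the sources used here, so they do not check the genotype.

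Reads were summed per tag over all kept cells and tested with edgeR's quasi-likelihood test, with Benjamini-Hochberg adjustment over all genes tested and a threshold of 0.05. The ± after a log2 difference is its SE, derived from the F statistic of that test, while ± after CPM or percent is SD. Of 19477 genes tested, 292 passed (1.5%), 143 of them higher in the second block (0.734%) and 149 lower (0.765%), while the median log2 difference over all genes was -0.01. The CPM of the 2 blocks did not overlap in any of the 292. Absence of overlap goes largely with passing the test, and its share over all genes is not given here. It is therefore no separate support for a call. In sums over all cells of a tag, fewer cells of a type and less RNA per cell cannot be told apart. The number of calls fell to between 46 and 98 when any 1 tag was left out, and the share of calls that were higher moved from 49.0% to between 28.6% and 44.9%.

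Several interferon-responsive genes fell. Of the 25 listed genes of the type I interferon response, 9 fell (0.765% of all genes fell), none rose and all 25 had a log2 difference below 0, with a median of -1.10. Irf7 (chr7:141262706-141266481), the transcription factor that amplifies the type I interferon response, stood at 65.9, 76 and 82 CPM in tags 1 to 3 and 23.4, 23.9 and 26.9 CPM in tags 4 to 6. Every tag of the second block was well below every tag of the first, and the difference (log2 -1.59 ± 0.12, adjusted p = 0.0014) was larger than the spread between tags. Ifi27l2a, an interferon-induced gene, stood at 698, 781 and 826 CPM in tags 1 to 3 and 243, 219 and 333 CPM in tags 4 to 6. The blocks were again apart, and this gene fell too (log2 -1.53 ± 0.15, adjusted p = 0.0046). Ifi44, of the interferon-induced protein 44 family, fell from 38.3 ± 10.0 to 10.8 ± 1.47 CPM (SD, n = 3; log2 -1.82 ± 0.21). Oas2, one of the synthetases that make the oligoadenylate which activates RNase L, fell from 20.1 ± 6.27 to 4.23 ± 1.89 CPM (log2 -2.25 ± 0.40). Bst2 (tetherin, which holds budding virus at the cell surface), Ifit3, Oas1a, Oasl2 and Rtp4 were the other members that fell, with log2 differences of -0.79, -1.49, -1.27, -1.18 and -0.93. Among members that did not pass, Isg15 stood at 51.8, 83.3 and 74.3 against 37.7, 41.3 and 50.2 CPM, without overlap of the blocks, and Ifit1 at 18.3, 41 and 36.2 against 29.8, 11.3 and 18.5 CPM, with overlap. Ifi209, a member of the interferon-inducible p200 family outside that list, fell from 30.6 ± 10.5 to 9.71 ± 2.23 CPM (log2 -1.66 ± 0.28). Its call was lost without tag 2, 3, 4, 5 or 6. With 1 tag left out, 2 to 6 of the 25 passed.

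Several genes of MHC class I presentation fell as well. Of 21 listed interferon-gamma and MHC class I genes 7 fell and none rose, with a median log2 difference of -0.55. B2m (chr2:122147686-122153083), the invariant chain of MHC class I, stood at 6514, 6810.4 and 6486 CPM in tags 1 to 3 and 3365, 3735 and 3823 CPM in tags 4 to 6. The tags of each block lay within a narrow range and the second block was lower throughout (log2 -0.86 ± 0.05, adjusted p = 0.00085). H2-K1 (chr17:33996017-34000347), a classical class I heavy chain, stood at 1859.5, 2123 and 2084 CPM in tags 1 to 3 and 926, 1061 and 990.4 CPM in tags 4 to 6, with no overlap (log2 -1.03 ± 0.07, adjusted p = 0.0011). H2-D1, the other classical heavy chain of this strain, fell from 1937 ± 88.2 to 1079 ± 59.4 CPM (log2 -0.84 ± 0.06). Tap1, a subunit of the peptide transporter, the immunoproteasome subunits Psmb8 and Psmb9, and Nlrc5, the transactivator of class I genes, also fell (log2 -0.66, -0.52, -0.71 and -1.06). Irf1, which interferon gamma induces, stood at 78.1, 76.8 and 79.4 against 89.3, 82.6 and 76 CPM and did not pass (log2 0.08 ± 0.09). Heavy-chain genes of this locus resemble each other, so reads of one may have been assigned to another. With 1 tag left out, 3 to 4 of the 21 passed.

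Of 10 listed MHC class II genes 5 fell, all 10 having a log2 difference below 0 (median -0.86). Cd74, the invariant chain that escorts class II molecules, stood at 2514, 2916 and 3067 CPM in tags 1 to 3 and 1431, 1406 and 1305 CPM in tags 4 to 6. Every tag of the second block was below every tag of the first (log2 -1.04 ± 0.08, adjusted p = 0.0012). H2-Ab1 and H2-Aa, the chains of the I-A molecule, fell from 1086 ± 91.7 to 547 ± 35.6 CPM and from 976 ± 122 to 520.3 ± 29.5 CPM (log2 -0.99 and -0.91). H2-Eb1 and the peptide-exchange subunit H2-DMa fell too (log2 -0.86 and -0.86). These sums also moved with cell shares. B cell-like and alveolar type 2-like cells, which carry class II, held smaller shares of cells in the second block (given below). Unnamed cluster 12, where Cd74 stood at 16856 CPM in the first block, went from 3.31% to 2.54% of cells and did not pass. The part of these shifts in the folds was not tested over all cells. With 1 tag left out, 3 to 4 of the 10 passed.

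**Figure D1:**
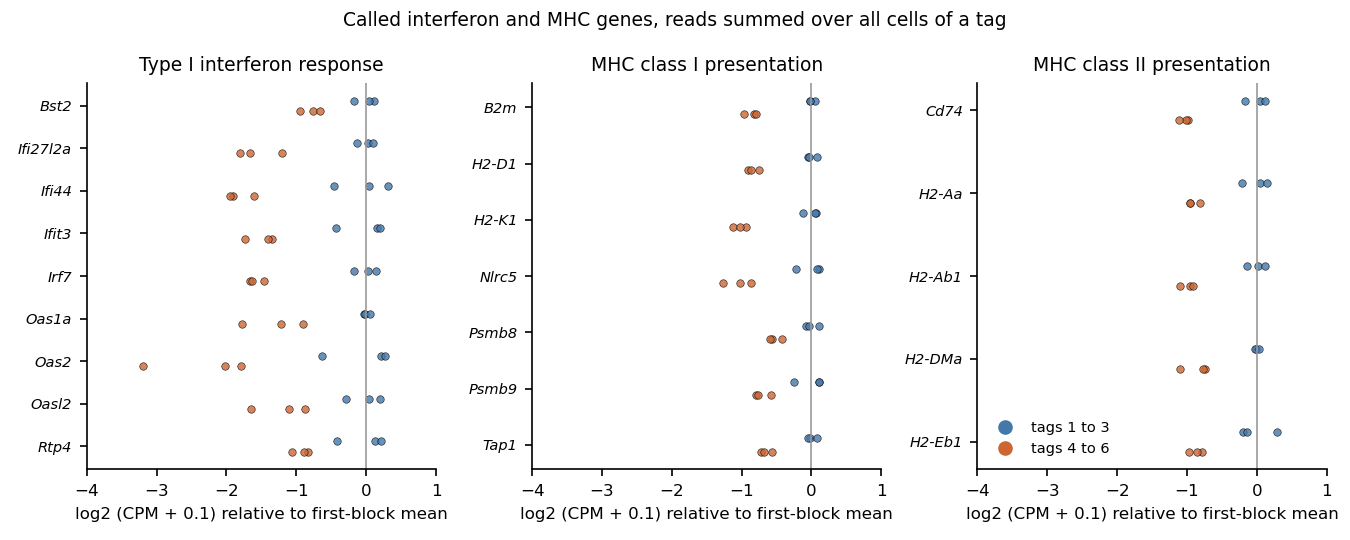
Each point is 1 tag of the CCR2-/- table; the x axis gives log2 of its CPM (plus 0.1) relative to the mean of the first block, over reads summed across all kept cells, for the 9, 7 and 5 genes of the type I interferon, MHC class I and MHC class II lists that fell. Points of the second block (tags 4 to 6) lie to the left of every point of the first block (tags 1 to 3) for each gene, from a log2 difference of -2.25 for Oas2 to -0.52 for Psmb8.

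The promoters of 4 of these genes are shown because a script found in them the core of the interferon-stimulated response element, searched as GAAANNGAAA on both strands. They are RefSeq sequences on GRCm38.p6, from 250 bases before to 50 bases after the annotated start, 5′ to 3′ along the gene, with each match in capitals (a match on the other strand reads as its reverse complement).
Oas1a, chr5:120907476-120907775, minus strand: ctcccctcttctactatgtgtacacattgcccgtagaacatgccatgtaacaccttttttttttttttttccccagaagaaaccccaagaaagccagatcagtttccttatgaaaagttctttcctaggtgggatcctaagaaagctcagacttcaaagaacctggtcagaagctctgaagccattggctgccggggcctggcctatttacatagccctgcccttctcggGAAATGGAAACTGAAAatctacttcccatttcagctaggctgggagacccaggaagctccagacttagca
Bst2, chr8:71537423-71537722, minus strand: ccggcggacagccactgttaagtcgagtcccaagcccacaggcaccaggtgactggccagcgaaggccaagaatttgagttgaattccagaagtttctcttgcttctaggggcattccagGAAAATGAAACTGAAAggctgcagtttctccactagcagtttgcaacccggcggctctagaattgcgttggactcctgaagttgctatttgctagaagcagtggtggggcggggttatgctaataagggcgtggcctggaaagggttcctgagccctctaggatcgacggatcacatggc
Ifit3, chr19:34583279-34583578, plus strand: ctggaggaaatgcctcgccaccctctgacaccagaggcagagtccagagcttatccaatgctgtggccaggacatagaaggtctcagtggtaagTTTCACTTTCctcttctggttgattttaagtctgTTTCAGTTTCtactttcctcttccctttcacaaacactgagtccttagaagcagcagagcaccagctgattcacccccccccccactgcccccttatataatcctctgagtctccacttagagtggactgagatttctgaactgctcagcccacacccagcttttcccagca
B2m, chr2:122147437-122147736, plus strand: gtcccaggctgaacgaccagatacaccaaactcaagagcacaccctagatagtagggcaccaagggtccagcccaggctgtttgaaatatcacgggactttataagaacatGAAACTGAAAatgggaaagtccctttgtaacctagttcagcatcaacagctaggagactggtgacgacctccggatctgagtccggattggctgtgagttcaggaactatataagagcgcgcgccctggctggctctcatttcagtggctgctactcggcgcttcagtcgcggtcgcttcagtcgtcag
The first match began 20 bases before the start of Oas1a, 130 before that of Bst2, 156 before that of Ifit3 and 139 before that of B2m. Oas1a and Bst2 each held 2 matches that overlap, and Ifit3 held 2 that do not. Of all 32851 promoters in the table, 1131 (3.44%) held the motif, and of the 17952 promoters matched to genes tested over all cells, 3.32% did. Among the called members with a promoter in the table, it was in 3 of 6 of the type I list, 1 of 6 of the MHC class I list and 0 of 3 of the MHC class II list. A match describes letters in this window and was not tested for binding.

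Shares of cells were compared over 28 clusters of the CCR2-/- table, after calls of likely doublets by Scrublet were left out, by edgeR's quasi-likelihood test on cells per cluster and tag. Of these, 9 passed (32.1%), 5 larger in the second block (17.9%) and 4 smaller (14.3%). Clusters were named "like" a cell type only from its listed markers, and 5 clusters stayed unnamed. With 3 tags against 3, a two-sided exact permutation test cannot go below 0.10, and it gave 0.1 for each of the 7 called shares without overlap, and also for clusters 9, 12 and 24, which did not overlap and were not called.

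The 4 smaller shares included 3 of lymphocytes. Cluster 11, which was led by Ctla4, Icos and Il2ra and stayed unnamed, held 4.73%, 4.78% and 4.68% of cells in tags 1 to 3 and 1.76%, 1.96% and 3.03% in tags 4 to 6. Its first-block tags were almost equal, and all second-block tags were below them (log2 -1.07 ± 0.23, adjusted p = 0.00022). Plasma cell-like cells held 1.22%, 0.537% and 0.86% of cells in tags 1 to 3 and 0.293%, 0.112% and 0.309% in tags 4 to 6, with no overlap but only 50 and 14 cells in the 2 blocks (log2 -1.83 ± 0.49, adjusted p = 0.0019). B cell-like cells held 8.19%, 8.81% and 12% of cells in tags 1 to 3 and 8.5%, 5.64% and 4.89% in tags 4 to 6. Tag 4 of the second block lay within the range of the first, so the blocks overlapped although the test was passed (log2 -0.60 ± 0.19, adjusted p = 0.0092), and the call was lost in 4 of the 6 fits that left out 1 tag. The T cell-like cluster led by Lef1 and Tcf7 (cluster 6) held 5.54 ± 1.16% and 5.54 ± 0.142% and did not pass. Alveolar type 2-like cells made up the remaining smaller share, 12%, 14.9% and 10.4% of cells in tags 1 to 3 and 8.06%, 8.99% and 6.22% in tags 4 to 6, without overlap (log2 -0.68 ± 0.18, adjusted p = 0.0019).

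Of 12 listed immunoglobulin genes 3 fell over all cells. Igkc (chr6:70726435-70726966), the constant part of the kappa light chain, stood at 5603, 1553 and 3323 CPM in tags 1 to 3 and 534, 322 and 461 CPM in tags 4 to 6. The first block varied widely, yet each of its tags was above every tag of the second (log2 -2.99 ± 0.42, adjusted p = 0.019). Iglc3, a lambda constant part, fell from 31.8 ± 6.04 to 9.39 ± 1.53 CPM (log2 -1.76 ± 0.20). Ighg3 had 389 reads in the first block and 0 in the second, at least 150.2-fold lower against a floor of 3 reads over the block. All 12 had a log2 difference below 0, with a median of -2.39 (-2.39 with Ighg3 at its bound). Igha and Jchain, whose products form secreted IgA, did not pass and stood at 5912, 1368 and 5129 against 816, 386 and 979 CPM and 1538, 413 and 1339 against 262, 125 and 294 CPM. The list had 0 to 5 calls when 1 tag was left out. The gene tests and the shares come from the same tags, so they are not independent of each other.

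Of 17 listed T cell subset and checkpoint genes 3 fell over all cells, Foxp3, Ctla4 and Tnfrsf4. Foxp3 (chrX:7573644-7595245), the factor that defines regulatory T cells, stood at 9.98, 12.3 and 8.67 CPM in tags 1 to 3 and 3.28, 1.9 and 1.43 CPM in tags 4 to 6. No second-block tag reached the lowest first-block tag (log2 -2.22 ± 0.35, adjusted p = 0.029). The checkpoint receptor gene Ctla4 fell from 51.7 ± 7.01 to 24.2 ± 4.09 CPM and Tnfrsf4, which encodes the OX40 receptor, from 21.6 ± 6.25 to 7.64 ± 2 CPM (log2 -1.10 ± 0.16 and -1.50 ± 0.27). All 17 had a log2 difference below 0 (median -1.01). Leaving out 1 tag gave 0 to 1 calls in this list. Cells with a Foxp3 read made up 1.38 ± 0.216% of cells in the first block and 0.553 ± 0.101% in the second, and cells with a Ctla4 read 5.22 ± 0.348% and 2.74 ± 0.111% (SD, n = 3), beside 1.96% with a Ctla4 read among B cell-like cells, whose median depth was 11789 reads against 23639 over all cells. None of 11 cytotoxic lymphocyte genes passed, and 8 had a log2 difference below 0.

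The 5 larger shares were those of 2 neutrophil-like, 2 activated fibroblast-like and 1 large vessel endothelial-like cluster. Other fibroblast and vessel clusters did not pass, among them alveolar fibroblast-like cluster 4, adventitial fibroblast-like cells and general capillary endothelial-like cells (log2 0.07, -0.39 and 0.03). Neutrophil-like cluster 5, led by Ccl3, Il1rn and Ccl4, held 5.24%, 5.8% and 4.89% of cells in tags 1 to 3 and 6.94%, 10.8% and 8.85% in tags 4 to 6, with all second-block tags above the first (log2 0.73 ± 0.19, adjusted p = 0.0019). Neutrophil-like cluster 18, led by Retnlg and S100a9, held 1.07%, 1.07% and 1.18% of cells in tags 1 to 3 and 2.49%, 2.68% and 2.01% in tags 4 to 6, again without overlap (log2 1.10 ± 0.28, adjusted p = 0.0019). Cells with a read of S100a8, a calcium-binding protein abundant in neutrophils, went from 14.6 ± 0.757% to 20.9 ± 2.07%, and after thinning to 5000 reads a cell from 7.72% to 12.7%, beside 5.12% unthinned in B cell-like cells. Such cells were also more frequent in the second block within cluster 3 (15.3% to 17.1% against 20.6% to 25.1%) and cluster 7 (given below), so their share was not read as a share of neutrophils. Activated fibroblast-like cluster 3, led by Cxcl9, Nrep and Fst, held 7.32%, 6.61% and 5.75% of cells in tags 1 to 3 and 9.14%, 10.1% and 9.72% in tags 4 to 6, without overlap (log2 0.55 ± 0.19, adjusted p = 0.017). Cluster 10, activated fibroblast-like and led by the acute phase genes Saa1 and Saa3 and by Il6, held 2.09%, 2.42% and 1.72% of cells in tags 1 to 3 and 3.66%, 1.96% and 3.96% in tags 4 to 6, with tag 5 inside the range of the first block (log2 0.63 ± 0.24, adjusted p = 0.037). Large vessel endothelial-like cluster 16, led by Slc6a2, Selp and Cytl1, held 1.32%, 1.99% and 1.61% of cells in tags 1 to 3 and 2.2%, 2.74% and 2.83% in tags 4 to 6 (log2 0.66 ± 0.26, adjusted p = 0.042). When clustering left out the 478 genes called over all cells or within a cluster, its nearest cluster had a log2 difference of -0.19 and did not pass, so the direction for cluster 16 was not kept. The cluster nearest to cluster 11 had -0.42 there and -0.39 at the coarser resolution, and passed in neither. That clustering gave 5 clusters past the threshold, a coarser one gave 4, and leaving out 1 tag gave 2 (without tag 6) to 8. Clusters 11 and 18 passed in all 6 of those fits, clusters 1 and 26 in 5, cluster 5 in 4, cluster 3 in 3, and clusters 10 and 16 in 1.

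**Figure D2:**
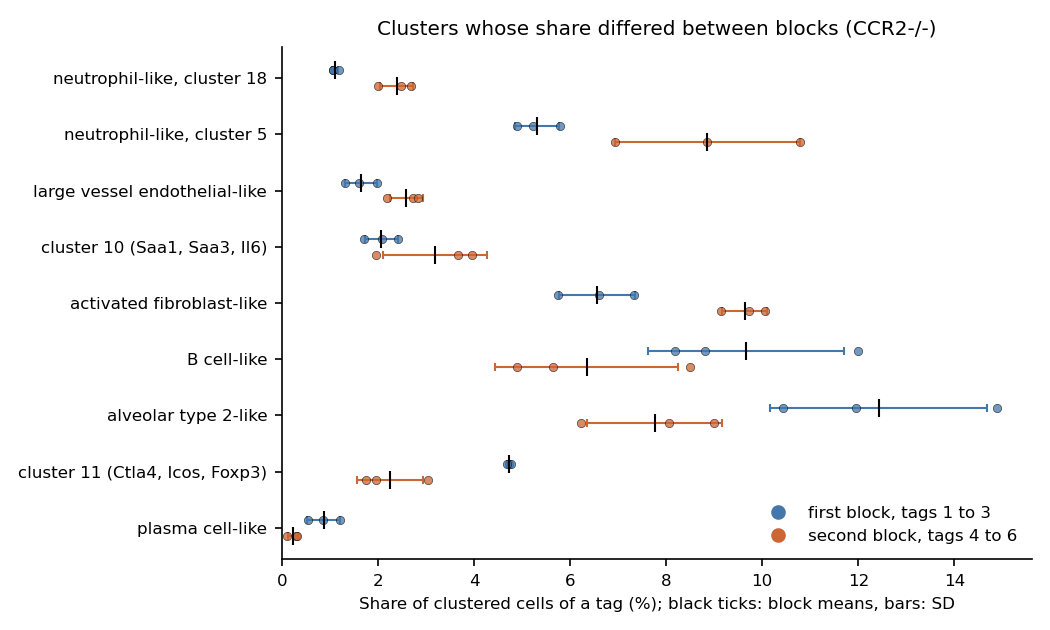
Points give the share of a tag's clustered cells, in percent, for the 9 clusters that passed; black ticks are block means and bars SD of 3 tags. The blocks are apart for all but B cell-like cells and cluster 10, and cluster 11 goes from 4.73% to 2.25%.

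Several matrix and contractile genes rose over all cells. Of 25 listed genes of interstitial collagen and matrix 7 rose (0.734% of all genes rose) and none fell, with a median log2 difference of 0.25. Tnc (chr4:63959785-64047015), tenascin C of provisional matrix, stood at 69.8, 80.7 and 69.8 CPM in tags 1 to 3 and 234, 171 and 182 CPM in tags 4 to 6. The lowest second-block tag was above every tag of the first (log2 1.42 ± 0.13, adjusted p = 0.0033). Col1a1 (chr11:94936224-94953042), a chain of type I collagen, stood at 905, 804 and 855 CPM in tags 1 to 3 and 1556, 1332 and 1321 CPM in tags 4 to 6, also without overlap (log2 0.72 ± 0.08, adjusted p = 0.0061). Fn1 (fibronectin), Col5a1, the collagen-crosslinking enzyme gene Lox, Col6a3 and Col1a2 rose by 0.67, 0.89, 0.60, 0.53 and 0.41 on the log2 scale. Col3a1 stood at 1567, 1638 and 1461 against 1582, 1491 and 1644 CPM and did not pass. The contractile list had 4 of 11 members higher, Actg2, Tpm2, Tpm1 and Cald1, and its median was 0.48. The larger share of cluster 3 moved with these sums, and its part in them was not tested. With 1 tag left out, 3 to 6 of the 25 matrix genes and 0 to 1 of the 11 contractile genes passed.

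Fst, Ereg, Wisp1 and Spp1 were among the genes named by rule that rose. Fst (chr13:114452290-114458951), follistatin, which binds and blocks activins, stood at 39.9, 24.8 and 44.6 CPM in tags 1 to 3 and 151, 125 and 129 CPM in tags 4 to 6. The blocks were far apart and this was the largest rise of the genes named by rule (log2 1.89 ± 0.20, adjusted p = 0.0061). Ereg, an epidermal growth factor receptor ligand, and Wisp1, a matricellular protein of the CCN family, rose from 24.2 ± 4.66 to 65.8 ± 14.2 CPM and from 14.1 ± 3.92 to 36.1 ± 6.38 CPM (log2 1.44 ± 0.19 and 1.35 ± 0.23). Spp1 (chr5:104435118-104441050), osteopontin, a secreted product of macrophages and fibroblasts, stood at 2239, 2268 and 1621 CPM in tags 1 to 3 and 3857, 5946 and 4965 CPM in tags 4 to 6. Second-block tags spread more than first-block tags but lay above them all (log2 1.27 ± 0.17, adjusted p = 0.018). S100a14, Chn1, Mest, Cdc20 and Cenpw were the other large rises (log2 1.74, 1.47, 1.23, 1.31 and 1.14). Vwf, von Willebrand factor of endothelium, stood at 36.9, 44.4 and 42.2 CPM in tags 1 to 3 and 101, 104 and 79.9 CPM in tags 4 to 6, without overlap (log2 1.21 ± 0.13, adjusted p = 0.0061). Fst and Vwf passed in every fit without 1 tag, while Wisp1, Mest and Cdc20 passed in none. The call of Spp1 was lost without tag 1, 2, 3, 5 or 6. Those of Ereg and Chn1 were lost without tag 1, 2, 4 or 5. S100a14 was lost without tag 1, 3, 4, 5 or 6, and Cenpw without tag 1, 2, 3, 4 or 5. Transforming growth factor beta 1 (Tgfb1) stood at 76.5, 93 and 75.8 against 82.5, 79.1 and 76.6 CPM and did not pass. Of 20 listed genes of the TGF-beta and activin axis 2 rose, Fst and Fstl1, with a median of 0.004.

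A few cell cycle and glycolysis genes rose. Of 24 listed genes of G2 and mitosis 3 rose, Birc5, Ccna2 and Ube2c, with a list median of 0.49, and of 18 S phase genes 2 rose, Mcm4 and Rrm1, with a median of 0.52. Birc5, survivin of the mitotic spindle, stood at 32.2, 28.8 and 33.4 CPM in tags 1 to 3 and 60.7, 67.1 and 61.1 CPM in tags 4 to 6, without overlap (log2 1.00 ± 0.11, adjusted p = 0.0061). Mki67 stood at 42.4, 38 and 37.8 against 44.8, 65.3 and 56.4 CPM and did not pass. The glycolysis list had 5 of 17 genes higher, Pkm, Pgk1, Eno1, Pgam1 and Gapdh, by 0.39 to 0.57 (list median 0.29). With 1 tag left out, 0 to 2 glycolysis genes, 1 G2 gene and 0 S phase genes passed. In the immediate early list, which dissociation of tissue also raises, 4 of 17 genes fell, Fos, Jun, Dusp1 and Jund, by 0.43 to 0.58 on the log2 scale. The labels give 1 digestion protocol, and the part of dissociation in these values was not tested.

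Ly6i, Pigr, Ear1, Krt79 and Mmp12 were among the genes named by rule that fell. Ly6i, a lymphocyte antigen 6 family gene, stood at 355, 399 and 281 CPM in tags 1 to 3 and 54.8, 66.1 and 62.2 CPM in tags 4 to 6, and Pigr, which carries immunoglobulin A across epithelium, at 103, 143 and 118 CPM in tags 1 to 3 and 22.9, 25.3 and 31.2 CPM in tags 4 to 6. Both fell several-fold, with the blocks far apart (log2 -2.50 ± 0.14 and -2.20 ± 0.16, adjusted p = 0.00081 and 0.0012). Ear1, a ribonuclease of alveolar macrophages, stood at 78.2, 79.1 and 70.4 CPM in tags 1 to 3 and 23.3, 9.71 and 6.98 CPM in tags 4 to 6 (log2 -2.51 ± 0.39, adjusted p = 0.027). Of the 10 listed alveolar macrophage markers Ear1, Krt79 and Siglecf fell (log2 -2.58 for Krt79 and -1.30 for Siglecf), none rose and 3 were above 0. The list's median was -0.29, and its summed level was 2290.4 to 3218 CPM in the first block and 2442 to 3263 CPM in the second. Fabp1, a fatty acid binding protein, fell (log2 -2.72), as did Mmp12, the macrophage elastase, from 208 ± 34.1 to 87.1 ± 13.8 CPM (log2 -1.26 ± 0.15). Cilp, of cartilage-type matrix, fell from 31.7 ± 4.28 to 10.4 ± 0.934 CPM, and the complement genes C3 and C1s1 by 0.72 and 0.56 on the log2 scale. Ly6i, Pigr, Mmp12, Cilp and C3 passed in every fit without 1 tag. The calls of Ear1, Krt79 and Fabp1 were lost without tag 1, 2, 3, 5 or 6. That of C1s1 was lost without tag 1, 2, 3, 4 or 5.

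Shares of cells with a read were tested gene by gene as well. Of 15485 genes tested 2521 passed (16.3%), 2137 higher (13.8%) and 384 lower (2.48%), and the median over all genes was 0.13 on the log2 scale. Thinning each cell to 5000 reads left 1130 calls of 12961 (8.72%), 733 higher (5.66%) and 397 lower (3.06%), with a median of 0.07. Cells with an Irf7 read made up 10.6 ± 1.22% of the first block and 4.73 ± 0.743% of the second, beside 4.36% in B cell-like cells over both blocks. Cells with an H2-K1 read went from 79.0 ± 0.413% to 67.8 ± 2.24%, without overlap. Vwf reads were found in 5.83 ± 0.593% and 10.5 ± 0.634% of cells and, thinned, in 3.2% and 7.4%. Cthrc1, a marker of collagen-producing activated fibroblasts, was read in 2.15 ± 0.316% and 3.87 ± 0.617% of cells, and in 0.218% of B cell-like cells. Cd79b, part of the B cell receptor, was read in 5.34 ± 0.272% and 3.04 ± 0.502% of cells, the second value being below the 5.12% found in alveolar type 2-like cells, whose median depth was 45929 reads. Ccr2 was read in 1.25 ± 0.418% and 1.45 ± 0.171% of cells, which overlapped. Sftpc was read in 87.8 ± 1.15% and 86.6 ± 0.279% of all cells and in 79.1% of B cell-like cells, where it is not made, so its share was not read as a share of type 2 cells.

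Genes were then tested within each of 23 clusters that had at least 20 cells in every tag. In all, 296 calls were made, in 10 clusters, and the alveolar type 2-like, activated fibroblast-like (cluster 3) and alveolar macrophage-like clusters held most of them. On data simulated from these clusters, 37% to 42% of 4-fold changes and 6% to 9% of 2-fold changes were recovered in those 3, so a gene without a call may still differ. For 5 interferon and MHC class I genes the sign was compared across clusters, and few of the differences passed. All 5 had already fallen in sums over the same cells, so signs below 0 were likely beforehand and are no separate support. H2-K1 and Ifi27l2a had a log2 difference below 0 in 23 of 23 clusters, with 3 calls each, B2m in 22 with 4 calls, and H2-D1 in 22 with 4 calls. Irf7 was below 0 in 19 of 22 clusters with 1 call. Fos, Jun, Dusp1 and Cd74, which also fell over all cells, were below 0 in 21, 22, 17 and 17 of 23 clusters. Mmp12, which fell over all cells too, was below 0 in 5 of 7. The pattern was thus not particular to interferon and MHC class I genes, and its share over all genes was not counted. In T cell-like, natural killer-like and neutrophil-like (cluster 18) cells B2m stood close to 0 (log2 0.02, -0.04 and -0.02). The clusters come from the same 6 tags, so they are not separate replicates.

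In alveolar macrophage-like cells (cluster 7, 286 and 275 cells), 105 of 11630 genes passed (0.903%), 39 higher (0.335%) and 66 lower (0.567%). Several genes of the lipid-associated macrophage list and 3 ligands of CCR2 rose, while Cxcl2, Cxcl3 and 5 of the 10 alveolar macrophage markers fell. Fabp4, another of those markers, rose. The cells had a median of 79365 reads in the first block and 129602 in the second.

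The 3 tested ligands of CCR2 all rose in these cells. Ccl12 (chr11:82101845-82103400) stood at 6.69, 15.6 and 5.2 CPM in tags 1 to 3 and 145, 172 and 72.9 CPM in tags 4 to 6, and Ccl7 at 47.5, 26.6 and 32 CPM in tags 1 to 3 and 101, 233 and 121 CPM in tags 4 to 6, while Ccl2 went from 158 ± 27 to 354 ± 44.7 CPM. For each, all second-block tags were above all first-block tags (log2 3.81 ± 0.48 for Ccl12 and 1.16 ± 0.17 for Ccl2). The level of Ccl12 was higher in interstitial macrophage-like cells (cluster 20), where it is a leading gene, at 1062 ± 545 against 1642 ± 443 CPM (log2 0.63). In unnamed cluster 13 it stood at 5.82 ± 9.27 against 50.1 ± 60.0 CPM (log2 3.08). The blocks overlapped in both of these clusters and it passed in neither. Over all cells none of the 4 listed ligands passed, with a list median of 0.62 and Ccl2 at 239, 318 and 284 against 374, 368 and 423 CPM (adjusted p = 0.073). In the clustering made without called genes, a check of the gene tests that was chosen after seeing the data, Ccl12 still passed, while Ccl2 and Ccl7 no longer did.

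Of 18 listed lipid-associated macrophage genes, 9 rose and 1 fell in cluster 7 (list median 0.66). Spp1 stood at 10292, 7210.0 and 4126 CPM in tags 1 to 3 and 21854, 27201 and 27109 CPM in tags 4 to 6. All second-block values lay above those of the first block (log2 1.82 ± 0.25, adjusted p = 0.0089). In 2 other clusters with many Spp1 reads it did not pass and its mean was lower in the second block, 13481 ± 423 against 7735 ± 2136 CPM in unnamed cluster 13, led by Mmp12 (log2 -0.80, no overlap), and 9043 ± 5908 against 2189 ± 1390 CPM in interstitial macrophage-like cells (log2 -2.05, with overlap). Trem2, a lipid receptor that sustains such macrophages, rose from 135 ± 20.1 to 377 ± 23.2 CPM, and Fabp5, a fatty acid binding protein, from 1199 ± 172 to 3264 ± 373 CPM (log2 1.48 ± 0.15 and 1.44 ± 0.12). The lysosomal proteases Ctsk, Ctsb and Ctsd, the tetraspanin Cd63, Gpnmb and Fabp4 were the other members that rose (log2 1.14, 1.09, 0.63, 0.68, 0.59 and 1.83). Mmp12 fell, at 472, 434 and 544 against 125, 72.2 and 64.8 CPM (log2 -2.47 ± 0.24, adjusted p = 0.0014). Its level was higher in cluster 13, at 2366 ± 1127 against 2629 ± 1556 CPM (log2 0.15). In interstitial macrophage-like cells it stood at 1672 ± 333 against 1040 ± 484 CPM (log2 -0.69). The blocks overlapped in both of these clusters and it passed in neither. In cluster 7 the complement initiators C1qa, C1qb and C1qc rose (log2 1.69 ± 0.22, 2.27 ± 0.41 and 1.97 ± 0.32). Msr1, a scavenger receptor for silica, the iron transporter gene Slc11a1, heme oxygenase Hmox1 and Igf1 rose there too (log2 1.08, 2.51, 1.02 and 1.20). Fdps of cholesterol synthesis rose by 2.00. In the clustering without called genes, Gpnmb, Hmox1, Igf1, C1qa and C1qc no longer passed. The calls of Gpnmb and Hmox1 were each lost in 5 of the 6 fits without 1 tag, and Gpnmb fell in cluster 3 (log2 -2.09) and in cluster 13 (given below).

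In the same cells 2 of 5 tested neutrophil-attracting chemokines fell (median -1.15), 1 of 7 inflammatory CC chemokines (Ccl9) and 1 of 14 genes of the inflammasome and interleukin-1 family (Il1b), and none rose. Cxcl3 and Cxcl2, which attract neutrophils through CXCR2, stood at 143, 172 and 137 against 11.4, 17.4 and 18 CPM and 1481, 1660.2 and 1179 against 719.8, 525 and 697 CPM. The blocks did not overlap for either (log2 -3.27 ± 0.26 and -1.15 ± 0.15, adjusted p = 0.00033 and 0.0064). Il1b, the interleukin released by the inflammasome that silica activates, fell from 397 ± 111 to 156 ± 24.1 CPM, and Slpi, an inhibitor of neutrophil proteases, from 1106 ± 164 to 194 ± 13.2 CPM (log2 -1.34 ± 0.22 and -2.51 ± 0.13). Lcn2, which withholds iron from bacteria, and the complement genes C3 and Cfb fell by 2.39, 1.87 and 1.54, and the immediate early genes Fos and Dusp1 by 1.53 and 1.94. B2m stood at 6471, 6729 and 6714 CPM in tags 1 to 3 and 3365, 3293 and 3511 CPM in tags 4 to 6 (log2 -0.97 ± 0.06, adjusted p = 3.8e-05), and H2-K1 and H2-D1 fell with it.

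Ear1, Ear2, Krt79, Siglecf and Car4 fell too, and they are markers by which this cluster is named. They stood at log2 -2.98, -1.47, -3.39, -1.77 and -1.05, and in the clustering that left them out Ear1, Ear2 and Krt79 stood at -2.94, -1.43 and -3.37. Chil3, another marker, stood at 10199, 10893 and 11930.0 against 12469, 9833 and 8757 CPM and did not pass. Fabp4, also a marker of this cluster, went the other way and rose (given above). Abcg1, which exports cholesterol, and Itgax (CD11c) fell from 1012 ± 143 to 452 ± 23.3 CPM and from 552 ± 22.8 to 222 ± 54.7 CPM. Beside these values, RNA of other cells moved: Sftpc went from 1645, 1122 and 839 to 495, 163 and 153 CPM, Sftpa1 and Epcam of epithelium fell, and cells with an S100a8 read went from 30.7% to 37.2% in tags 1 to 3 to 67.0% to 73.3% in tags 4 to 6. Of the 10 alveolar type 2 markers 1 passed in this cluster (summed level 9524 to 12136 against 9832 to 11313 CPM), and of the 10 interstitial macrophage markers the 3 C1q genes alone passed (458.5 to 835.5 against 1729.8 to 2117 CPM). Pf4 stood at 35.5, 64.1 and 64.1 against 48.5, 27.6 and 18.8 CPM, with overlap. Folr2, at 14.4, 1.88 and 0.163 against 2.42, 5.06 and 6.77 CPM, overlapped too and was read in only 1.33% to 2.65% of a tag's cells. The part of RNA of other cells in the values of cluster 7 was not tested. Calls numbered 33 to 77 with 1 tag left out, the fewest without tag 5.

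**Figure D3:**
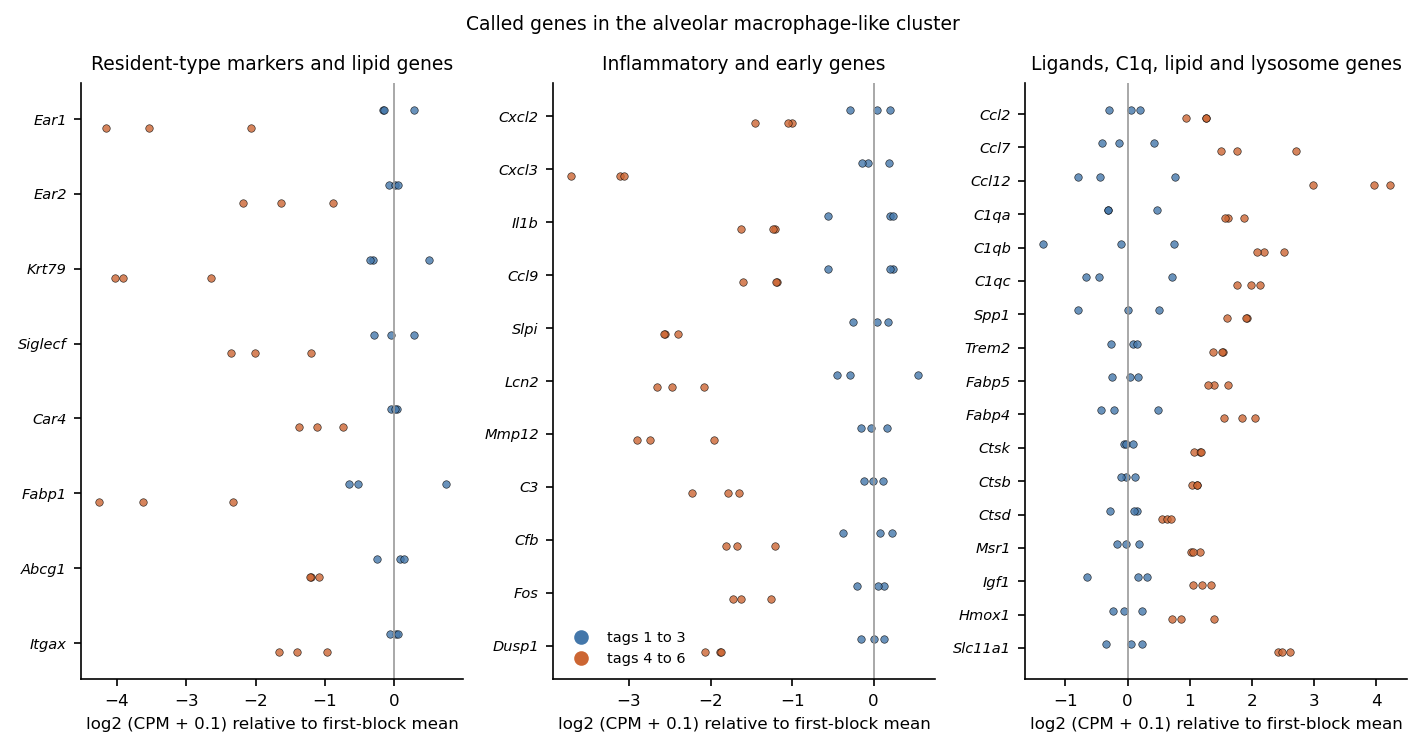
Points are tags, and the x axis is log2 of CPM (plus 0.1) relative to the first-block mean, in the alveolar macrophage-like cluster of the CCR2-/- table. Genes in the left and middle panels lie lower in tags 4 to 6, down to a log2 difference of -3.39 for Krt79, and those in the right panel lie higher, up to 3.81 for Ccl12.

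In activated fibroblast-like cells (cluster 3, 374 and 556 cells), 112 of 13153 genes passed (0.852%), 29 higher (0.22%) and 83 lower (0.631%). Several complement, MHC class I, interferon and matrix genes fell, while Inhba, Fst and Spp1 rose. The cells had a median of 48534 reads in the first block and 82059 in the second.

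Of 13 tested complement genes 7 fell, all 13 having a log2 difference below 0 (median -1.78). C3 (chr17:57203970-57228136), the central component, stood at 2389, 2117 and 1843 CPM in tags 1 to 3 and 349, 479 and 718 CPM in tags 4 to 6. Every second-block tag was below every first-block tag (log2 -2.04 ± 0.23, adjusted p = 0.0054). C1s1 and C1ra, proteases of the C1 complex, C2, the C1 inhibitor gene Serping1, and C4b fell by 1.78, 1.58, 2.44, 1.38 and 1.97 on the log2 scale. Reads of C4b may have been shared with its near-identical copy C4a. H2-K1 and H2-D1 stood at 1583, 1684 and 1436 against 219, 217 and 397 CPM and 1877, 1684 and 1359.9 against 300.3, 283 and 361 CPM, and fell about as much as each other (log2 -2.50 ± 0.23 and -2.38 ± 0.15). B2m fell from 7724 ± 858 to 2576 ± 358 CPM (log2 -1.58 ± 0.12). Of 23 tested type I interferon genes 4 fell, Irf7, Ifit3, Oas1a and Ifi27l2a, and all 23 were below 0 (median -2.19). Cxcl9, an interferon-gamma chemokine and the cluster's leading gene, stood at 349, 359 and 175 against 71.3, 137 and 169.7 CPM and did not pass.

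Several matrix genes fell in these cells. Postn (chr3:54361109-54391037), periostin, stood at 554, 588 and 626 CPM in tags 1 to 3 and 217, 178 and 228 CPM in tags 4 to 6, and the second block was lower in every tag (log2 -1.51 ± 0.14, adjusted p = 0.0016). Cilp, Aspn (asporin) and Fmod, which bind transforming growth factor beta or collagen, fell by 3.02, 2.48 and 1.76. Ltbp2, Ltbp4 and Bgn (biglycan) fell by 1.32, 1.10 and 0.73. Col1a1 stood at 4016, 3662 and 3391 CPM in tags 1 to 3 and 5126, 4790.2 and 4803 CPM in tags 4 to 6, apart but without a call (adjusted p = 0.059), and Tnc at 298, 524 and 399 against 869, 661 and 705 CPM (adjusted p = 0.081). The rise of Col1a1 over all cells thus stood beside a larger share of these cells and a within-cluster difference that did not pass. Igfbp7, an insulin-like growth factor binding protein, and Apoe fell from 5509 ± 326 to 2544 ± 337 CPM and from 1486 ± 171 to 446 ± 103 CPM. Of the 10 alveolar fibroblast markers 1 passed, lower (9 tested, summed level 3275 to 4319 against 1203 to 2604 CPM), and of the 10 adventitial fibroblast markers 1, lower (5015 to 5834 against 2933 to 3823 CPM); the part of such cells in these values was not tested.

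Inhba (chr13:16011851-16031621), the activin A subunit, stood at 20.8, 29.4 and 38.8 CPM in tags 1 to 3 and 219, 119.7 and 94.8 CPM in tags 4 to 6, and its antagonist Fst at 205, 157 and 265 CPM in tags 1 to 3 and 611, 541 and 595 CPM in tags 4 to 6. Both rose without overlap (log2 2.28 ± 0.36 and 1.48 ± 0.19, adjusted p = 0.024 and 0.0099). The call of Inhba was lost without tag 1, 2, 4 or 5, and that of Fst without tag 1 alone. Spp1 rose from 1563 ± 99.2 to 3678 ± 55.6 CPM, Wisp1 from 46.3 ± 11.5 to 138 ± 21.4 CPM and Errfi1, a brake on the epidermal growth factor receptor, from 131 ± 40.8 to 313 ± 3.06 CPM (log2 1.23 ± 0.08, 1.57 ± 0.25 and 1.26 ± 0.21). Spp1 passed in every fit without 1 tag. The calls of Wisp1 and Errfi1 were lost without tag 1, 2, 4 or 5, and that of Errfi1 without tag 6 too. Fst and Tnc are among the cluster's leading genes, and in the clustering without called genes Fst stood at 1.85 and Inhba at 2.25. The ribosomal protein gene Rplp0 and Eno1 of glycolysis rose by 0.59 and 0.97, and 6 of 17 immediate early and heat shock genes fell, Fos, Jun, Egr1, Dusp1, Hspa1a and Hspa1b. The call of Eno1 was lost in every fit without 1 tag. Calls numbered 18 to 126 with 1 tag left out, the fewest without tag 1.

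In alveolar type 2-like cells (cluster 1, 706 and 447 cells), 65 of 12378 genes passed (0.525%), 18 higher (0.145%) and 47 lower (0.38%). Several MHC genes of both classes, Pigr, Ly6i and several immediate early genes fell, and a few surfactant and lipid genes rose. The cells had a median of 43162 reads in the first block and 54053 in the second.

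B2m stood at 5613, 5270.5 and 5008 CPM in tags 1 to 3 and 1342, 1850.0 and 1598 CPM in tags 4 to 6 in these cells. The blocks did not overlap (log2 -1.73 ± 0.11, adjusted p = 5.6e-05). H2-K1 and H2-D1 fell by 1.42 and 0.98. H2-Ab1 (chr17:34257689-34269419) stood at 1903, 1945 and 1872 CPM in tags 1 to 3 and 595, 671 and 630.3 CPM in tags 4 to 6, and every tag of the second block was lower (log2 -1.59 ± 0.09, adjusted p = 2.7e-05). H2-Aa, H2-Eb1 and Cd74 fell with it (log2 -1.22, -1.26 and -1.10), making 4 of 7 tested class II genes. Ifi27l2a and Bst2 were the 2 type I interferon genes of 24 tested that fell (log2 -2.64 and -1.06), 22 of them being below 0.

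Pigr stood at 507, 602 and 577 CPM in tags 1 to 3 and 112, 117 and 155 CPM in tags 4 to 6 and Ly6i at 2149, 1935 and 1832 CPM in tags 1 to 3 and 399, 420.3 and 547 CPM in tags 4 to 6. Both were several-fold lower in every second-block tag (log2 -2.13 ± 0.16 and -2.11 ± 0.13). The complement genes Cfb and C3 fell by 3.49 and 1.34, Cldn18, a tight junction gene of alveolar epithelium, by 0.84, and 7 of 17 immediate early genes fell (Egr1, Fos, Fosb, Jun, Junb, Dusp1 and Zfp36). The call of Cfb was lost without tag 1, 2, 3, 5 or 6, while C3 passed in every fit without 1 tag. Clu, clusterin, also fell (log2 -0.88 ± 0.14), but at the coarser clustering it stood at 0.34 and did not pass.

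Sftpb (chr6:72304610-72314371), surfactant protein B, stood at 7090.2, 7128 and 7417 CPM in tags 1 to 3 and 10799, 9804 and 10219 CPM in tags 4 to 6. The rise was small and clear of overlap (log2 0.51 ± 0.05, adjusted p = 0.0015). Cxcl15, lungkine, rose from 11995 ± 629 to 16147 ± 419 CPM, and Npc2, which moves cholesterol out of lysosomes, from 8789.5 ± 496 to 16057 ± 977 CPM (log2 0.43 ± 0.05 and 0.87 ± 0.06). Sftpb and Cxcl15 are markers of the class; in the clustering without called genes they stood at 0.51 and 0.44. Bex2 and Tmem213 rose from 16.7 ± 2.86 to 127 ± 16.3 CPM and from 11.5 ± 5.11 to 114 ± 14.4 CPM, and Lgals3, galectin 3 of injured epithelium, rose from 56.6 ± 5.73 to 132 ± 25.7 CPM. Sftpb, Cxcl15, Bex2 and Tmem213 passed in every fit without 1 tag, while Lgals3 passed in none. Sftpc and Sftpa1 stood at 122239, 125353 and 133338 against 126558, 123566 and 116496 CPM and 31416, 28699 and 28284 against 24576, 26315 and 22585 CPM and were not called. The fall of Sftpa1 over all cells (log2 -0.84) stood beside the smaller share of these cells. Calls numbered 30 to 59 with 1 tag left out, the fewest without tag 2.

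**Figure D4:**
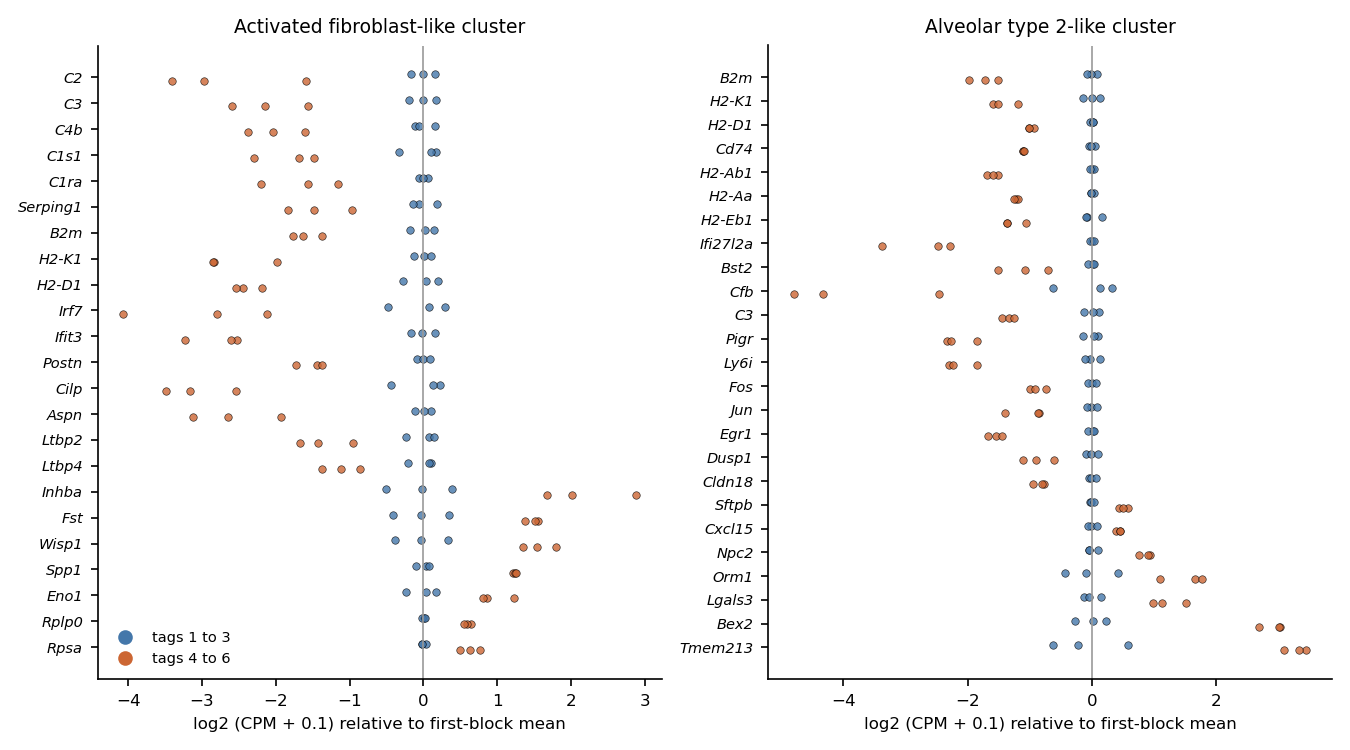
Points are tags, and the x axis is log2 of CPM (plus 0.1) relative to the first-block mean, for genes called in the activated fibroblast-like cluster 3 (left) and the alveolar type 2-like cluster (right). MHC class I and complement genes lie lower in tags 4 to 6 in both panels, from -0.98 for H2-D1 to -3.49 for Cfb in type 2-like cells, while Inhba and Fst lie higher on the left and Bex2 and Tmem213 on the right.

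The other clusters held 0 to 6 calls each, and most of these did not outlast the loss of a tag. In general capillary endothelial-like cells Vwf stood at 196, 171 and 225 CPM in tags 1 to 3 and 677, 725 and 585 CPM in tags 4 to 6 and was the 1 gene called of 10860 (0.00921%; log2 1.75 ± 0.18), but the call was lost in 5 of the 6 fits without 1 tag. In alveolar fibroblast-like cluster 4, 6 of 10883 genes passed (0.0551%): B2m, H2-D1, Enpp2, Igfbp3 and Sparc fell (0.0459%) and Serpina3n rose (0.00919%). Each of the 6 was lost in 5 or 6 of those fits, which gave 0 to 4 calls in this cluster. In aerocyte endothelial-like cells Mgp, matrix Gla protein, was the 1 gene of 8281 called (0.0121%), and it fell, at 1423, 3500.5 and 2764 against 616, 318 and 402 CPM, a call lost in 4 of the fits. In the unnamed cluster 21, led by the club cell genes Scgb1a1 and Scgb3a2, 2 of 9216 passed (0.0217%): Retnla, a resistin-like molecule of type 2 immunity, rose at 5389.8, 7546 and 9344 against 35448, 20257 and 31159.7 CPM, and Ifi27l2a fell, each call being lost in 5 of the fits. In neutrophil-like cluster 5 Thbs1, thrombospondin 1, was the 1 gene of 7451 called (0.0134%), at 3896, 5134 and 5284 against 1171, 1043 and 1244 CPM (log2 -2.05 ± 0.17), and its call was lost without tag 4 alone. In unnamed cluster 13, led by Mmp12, Cd300e and Adgre4, 2 of 7912 genes passed (0.0253%). Gpnmb, a transmembrane glycoprotein of macrophages, fell there, at 2194, 3877 and 2807 against 476, 289.6 and 505 CPM (log2 -2.80 ± 0.28, adjusted p = 0.012), and was called in all 6 fits without 1 tag, against its rise in cluster 7. Srgn, serglycin of secretory granules, rose in cluster 13 from 2037 ± 122 to 4701 ± 499.8 CPM, a call lost in 5 of the fits. In large vessel endothelial-like cells Igfbp7 was the 1 gene of 8037 called (0.0124%), and it fell, at 3720.4, 3577 and 4479.7 against 1292, 637 and 836 CPM, a call also lost in 5 of the fits. No gene passed within the B cell-like, T cell-like or interstitial macrophage-like clusters by edgeR, where 394, 290 and 425 genes had an unadjusted p under 0.05 and DESeq2 called 178, 106 and 152.

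Whether the block difference was that of WT was tested by the interaction of genotype and block in 1 fit over tags 1 to 6 of both tables. Of 21038 genes 15 passed (0.0713%), 14 with a lower (0.0665%) and 1 with a higher change (0.00475%) in CCR2-/-, and 1726 had an unadjusted p under 0.05. Each genotype is 1 library and 1 capture run, so genotype and run cannot be told apart. The labels also do not say that a block holds the same condition in both tables. A difference in block change is therefore not shown to be one over a matched interval. The changes within each genotype come from its own fit, and the CPM below from the joint fit.

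The interferon and MHC class I genes above made up much of the 15. Irf7 stood at 66.3, 77 and 82.1 against 23.5, 24 and 27.1 CPM in CCR2-/- and at 154, 161 and 196 against 169.6, 122 and 174 CPM in WT. The WT blocks overlapped, whereas the CCR2-/- blocks did not, and the change in CCR2-/- was lower than that in WT by a log2 of -1.46 (adjusted p = 0.031). B2m stood at 6554, 6899.9 and 6499 against 3386, 3753 and 3847 CPM in CCR2-/- and at 8009, 8423 and 8643 against 7525, 7238 and 7369 CPM in WT. WT values were slightly lower in the second block without overlap, and the difference between genotypes was -0.68 (adjusted p = 0.0025). Ifi27l2a, Ifi44, H2-D1, H2-K1 and Bst2 also differed, by -1.25, -1.79, -0.54, -0.62 and -0.76. H2-Ab1 and Cd74 of class II missed the threshold (-0.82, adjusted p = 0.051, and -0.71, adjusted p = 0.065).

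The other genes followed different courses. Igf1, insulin-like growth factor 1, stood at 274, 252 and 242 against 283, 265 and 294 CPM in CCR2-/- and at 152, 161 and 135 against 300.1, 323 and 306.7 CPM in WT, rising in WT without overlap and overlapping in CCR2-/- (difference -0.92, adjusted p = 0.017). Mdk, midkine, had a log2 change of 1.02 in WT and -0.13 in CCR2-/-. Igfbp7 fell in CCR2-/- (-0.42) and stood at 0.12 in WT. Dpep1, a membrane dipeptidase, was the 1 gene with a higher change in CCR2-/- (0.57 against -0.59). For other genes named above the difference did not pass: for Spp1 it was 0.08 (adjusted p = 0.98), for Tnc 0.18, for Pigr 0.08 and for Birc5 0.10, which does not show that the genotypes act alike. Of the 292 genes called in CCR2-/-, 12 had a called interaction; simulated 2-fold and 4-fold interactions were recovered in 16% and 49% of cases. Leaving out 1 tag gave 1 to 21 calls, the fewest without CCR2-/- tag 2, CCR2-/- tag 4, WT tag 1 or WT tag 6. Of the 10 called genes with the smallest p, B2m alone was called in every such fit.

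**Figure D5:**
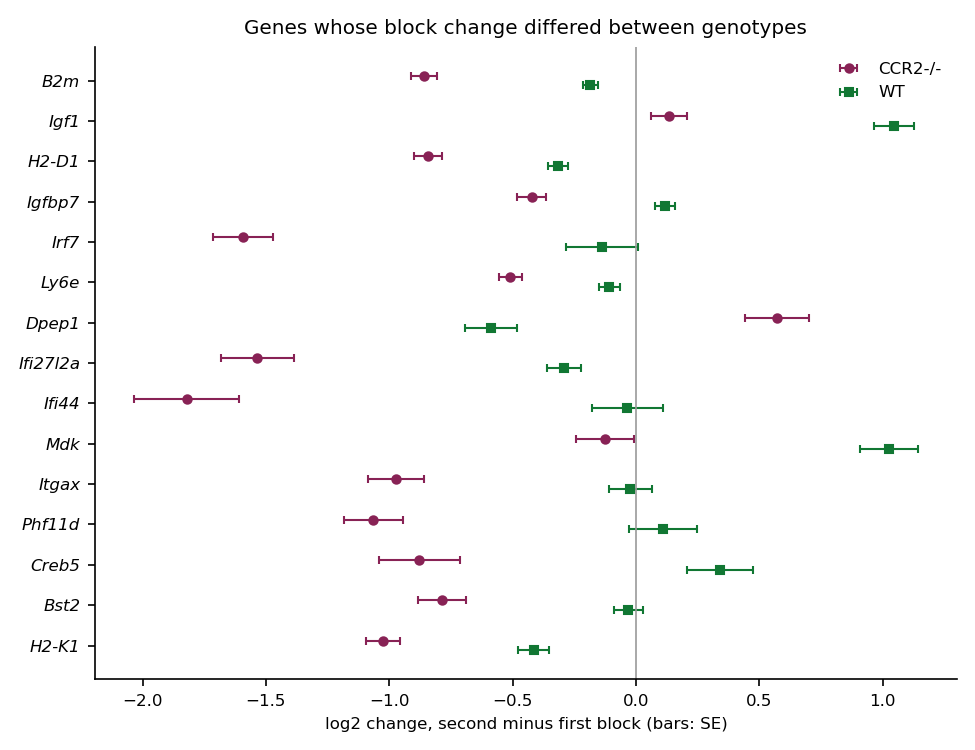
For the 15 genes that passed the interaction test, the x axis gives the log2 change from the first to the second block in CCR2-/- and in WT. Each change is from its own fit with 3 tags a block. Bars are the SE of the change, derived from the F statistic of the quasi-likelihood test. In CCR2-/- Irf7 lies at -1.59 and Ifi44 at -1.82, while in WT they lie at -0.14 and -0.03; Igf1 and Mdk lie near 1 in WT only.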

How the data were processed

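Per the submitters' processing notes, reads were processed with cutadapt 2.10, Bowtie2 2.4.2 and R 3.6.3 on GRCm38; the counting rule, the annotation and the handling of molecular identifiers are not given in the sources used here. The authors deposited 1 table of read counts per gene and cell for each genotype. These are whole reads and not molecules, so amplification adds spread that a count of cells does not show. Counts were summed per tag over kept cells and tested with edgeR 4.0.16 (filterByExpr, TMM factors, quasi-likelihood F test, Benjamini-Hochberg adjustment, threshold 0.05), on R 4.3.3. Cells were clustered with scanpy 1.11.5 and leidenalg 0.10.2 (2000 variable genes, 40 components, 20 neighbours, resolution 1.5, seed 1) after 336 Scrublet calls were left out; a cluster was tested for genes where each tag held at least 20 of its cells. Scripts were tested on simulated data. Genes were named by rule: per direction the 12 largest called changes over all cells and 8 within a cluster (at least 20 CPM, no overlap of blocks), up to 4 called members of each list, and the 10 interaction genes with the smallest p. List members beyond 4, uncalled members and the genes of the promoter paragraph were named after their values were seen. Members and lists were chosen with earlier results of these data known. Alternatives were other scaling, DESeq2 1.42.0, no filter on low counts, other cell filters, thinning, other clusterings and leaving out each tag. Tags 7 and 8 entered the clustering and 1 alternative only.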

Additional observations from a re-analysis of the deposited data

Results flagged for a closer look

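For 10 genes the change from the first to the second block differed between CCR2-/- and WT by the interaction test (edgeR's quasi-likelihood test, adjusted over all 21038 genes). The difference, CCR2-/- minus WT on the log2 scale, was -0.68 for B2m, -0.54 for H2-D1, -1.46 for Irf7, -1.25 for Ifi27l2a, -1.79 for Ifi44 and -0.41 for Ly6e, all genes that interferon induces. It was -0.92 for Igf1, -1.16 for Mdk and -0.55 for Igfbp7, which are secreted, and 1.15 for Dpep1. Of the 10, B2m alone was called in every fit that left out 1 tag. Each genotype is 1 library, so genotype and capture run cannot be told apart. Nor do the labels say that a block holds the same condition in both tables.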

How the results depend on the processing

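No paired analysis was possible because each genotype is 1 library and the tags of the blocks share no replicate number. Over all cells 292 genes were called; DESeq2 called 1750 (all 292 among them), thinning to 5000 reads 164 (65 higher, 99 lower), and leaving out 1 tag 46 to 98. The interaction went from 15 calls to 259 with DESeq2 and 1 to 21 without 1 tag. Shares of cells with a read went from 2521 calls to 1130 after thinning and 1325 to 2680 without 1 tag. Calls of cluster shares numbered 9; there were 4 at resolution 0.8 and 5 when clustered without called genes, both with other clusters, 4 when haematopoietic clusters alone were fitted (5 of the 9 are haematopoietic) and 2 to 8 without 1 tag. Matched to the nearest cluster, 4 of the 9 lost their call at resolution 0.8, and without called genes 2 did and 1 reversed. Within clusters, 296 calls became 4732 with DESeq2, 1006 with no filter on low counts and 114 to 225 without 1 tag. The share of cluster 16 reversed to -0.19 when clustered without called genes, and Clu in the alveolar type 2-like cluster reversed to 0.34 at resolution 0.8. The causes were not tested. Of 3066 alternative values of called results, 2201 were still called and 863 were not. With 3 tags a block, 46% of simulated 2-fold and 73% of 4-fold changes over all cells were recovered, so small changes may be missed.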

Other observations

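Haemoglobin reads were high in tags 4 and 5 alone. Hbb-bs stood at 2.70, 1.38 and 0.472 CPM in tags 1 to 3 and 155, 165 and 0.844 CPM in tags 4 to 6, and Hba-a1 at 4.22, 1.01 and 1.58 against 107, 107 and 0.387 CPM. The tags of the second block thus differed among themselves in these reads, and none of the 4 tested red cell genes was called (adjusted p of 0.089 to 0.14). Cells with an Hba-a1 read made up 0.697%, 1.10% and 0.737% of cells in tags 1 to 3. In tags 4 to 6 they made up 1.57%, 0.930% and 0.905%, so tag 5 was not apart in the share of such cells. Lymphoid chemokine and receptor genes were all below 0 in the second block, 8 of 8 with a median of -0.80, and none was called.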
